A study of Mus musculus with 2 samples.

Results

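Siglecs are sialic acid-binding lectins of the cell surface, and 7 genes of the family were followed through the immune cells of mouse glioma: Siglec1, Siglece, Siglecf, Siglecg, Siglech, Cd22 and Cd33. They were chosen by symbol and are 7 of the 31053 gene rows in the count matrices. The cells came from brains in which 100000 cells of GL261, a mouse glioma line, had been injected. Of 2 droplet libraries, 1 was made from WT mice and 1 from heterozygous CD169-DTR mice (allele Siglec1tm1(HBEGF)Mtka), in which the diphtheria toxin (DT) receptor is expressed from the Siglec1 locus. All mice were male, 8 to 12 weeks old, on the C57BL/6 background, and both genotypes received 40 ng/g DT at day -1 and day 4 of tumor injection. At 10 dpi, propidium iodide-negative, CD45.2-positive cells of the right hemisphere were sorted, and 3 mice were pooled per library. Siglec1 is therefore the gene of CD169 itself and the targeted gene of the comparison. Neither the labels nor the methods state whether the targeted allele still gives a 3′ end that is counted as Siglec1, so loss of cells and loss of counted transcripts from that allele cannot be told apart.

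Siglecs read the sialic acids that cap the glycans of most vertebrate cells, and many of them carry inhibitory motifs in the cytoplasmic tail that recruit phosphatases such as SHP-1. Siglec1 (CD169, sialoadhesin) lacks such motifs and is known as an adhesion receptor of macrophages, while Siglech signals through the adaptor DAP12. In the brain, microglia are the main bearers of Siglech and Cd33, human CD33 is a risk gene of Alzheimer disease, and Cd22, the classical inhibitory coreceptor of B cells, has also been described on aged microglia.

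Siglec1 lies apart from the other members, on chromosome 2 (131069220 to 131086765, minus strand), and the other 6 lie on chromosome 7 of GRCm38 (GENCODE M21). Siglecf (43351341 to 43359531), Siglecg (43408204 to 43418358), Cd33 (43524216 to 43544428) and Siglece (43651070 to 43660161) are neighbors in a stretch of 308.821 kb that holds 16 protein-coding genes. Cd22 (30865402 to 30880342) and Siglech (55768178 to 55778925) are on the same chromosome outside that stretch. Gm29439, which has a row of its own, overlaps Cd22 on the opposite strand, and no other member overlaps a gene. Promoter windows from RefSeq (GRCm38.p6) were found for 6 of the 7 members, all but Siglec1. The 250 bases before the start are shown for the 3 neighbors Cd33, Siglecf and Siglece, because the 2 member pairs most alike in level across the cell clusters were Siglecf with Cd33 (Pearson r = 0.86) and Siglece with Cd33 (0.85), over 25 clusters of both libraries. Capitals mark GAGGAA, the purine-rich core bound by ETS factors such as PU.1, on either strand (TTCCTC on the other), and a run of 16 bases that Cd33 and Siglecf have in common.
Cd33, chr7:43533172-43533421, minus strand: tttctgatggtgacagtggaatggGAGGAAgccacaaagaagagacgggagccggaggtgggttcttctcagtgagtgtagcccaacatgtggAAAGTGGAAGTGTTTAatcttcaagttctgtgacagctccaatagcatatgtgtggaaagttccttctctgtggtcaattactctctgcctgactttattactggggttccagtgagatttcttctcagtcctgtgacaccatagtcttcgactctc
Siglecf, chr7:43351091-43351340, plus strand: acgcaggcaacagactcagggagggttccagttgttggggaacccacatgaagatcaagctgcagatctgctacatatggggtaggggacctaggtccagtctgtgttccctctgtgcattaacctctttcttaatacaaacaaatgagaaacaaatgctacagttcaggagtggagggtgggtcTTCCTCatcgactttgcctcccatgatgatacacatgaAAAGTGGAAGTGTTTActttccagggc
Siglece, chr7:43660162-43660411, minus strand: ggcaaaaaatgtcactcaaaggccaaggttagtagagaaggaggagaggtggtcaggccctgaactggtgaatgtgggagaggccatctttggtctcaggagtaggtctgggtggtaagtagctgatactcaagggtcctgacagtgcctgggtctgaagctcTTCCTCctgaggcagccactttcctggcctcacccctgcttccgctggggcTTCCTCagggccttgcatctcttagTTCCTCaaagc
The shared run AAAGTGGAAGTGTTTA begins 157 bases before the start of Cd33 and 27 bases before the start of Siglecf, and it was found in 2 of 32851 RefSeq windows (0.00609%, both strands), which are the windows of these 2 genes. GAGGAA was found in 4 of the 6 member windows (Siglece, Siglecf, Siglecg and Cd33, with 3 sites in Siglece) and in 23.3% of all windows. The shared run was picked as the longest among all pairs of the 6 member windows, so its presence in the Cd33 and Siglecf windows was fixed by that choice. The RefSeq start of Cd33 lies 11257 bases from the 5′ end of its GENCODE gene model, so its window belongs to one of several possible starts.

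The libraries held 101808996 (WT) and 84065489 (CD169-DTR) unique molecular identifiers (UMIs), each marking 1 captured RNA molecule. A barcode was taken as a cell from 1000 UMIs up, if no more than 17% of them were mitochondrial. WT had 10107 such cells (median depth 7776 UMIs) and CD169-DTR had 7604 (8099.5 UMIs). The 2 libraries had 21 barcodes in common. Cells were clustered on variable genes and the clusters were named from marker genes, with the 7 members in neither set. Each class is "like" its name rather than a sorted population. There were 4733 WT and 5369 CD169-DTR microglia, 2287 and 734 macrophages, 1178 and 243 dendritic cells (DC), 102 and 11 plasmacytoid DC (pDC), 169 and 194 granulocytes, 76 and 124 B cells, 473 and 218 T cells, and 330 and 86 NK cells. All 11 microglial and all 12 macrophage markers were detected in their classes in both libraries, although the macrophages also held 2199 (WT) and 2660 (CD169-DTR) CPM of microglial markers. Clusters were named by a stricter count, of markers with at least 10 UMIs and 25% of their highest cluster level. By it, the macrophage cluster led by Clec4e and F10 had 12 of 12 markers. The cluster led by Gpnmb and Fabp5 had 4, and the cluster led by Ear2 and Adgre4 had 7. A level is given as UMIs of the gene per 1000000 UMIs of the class (CPM), with an exact Poisson interval, and a share of cells after every cell was thinned to 2000 UMIs, with an exact Clopper-Pearson interval. Intervals are at the 95% level and hold counting error alone. With 1 library per group there was no replicate and no test, and the difference between mice is unknown. Most members are not expected in T cells, so shares in T cells are given as the background of free RNA and mixed droplets.

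Siglech had the most UMIs of the family, 88831 in both libraries together, followed by Cd33 with 21725. Siglecf (4545), Siglece (3870), Cd22 (2676), Siglec1 (2097) and Siglecg (1761) were sparse. The 3′ chemistry counts each transcript once whatever its length, so these totals are not divided by gene length. Most of the UMIs of Siglech, Siglecf, Cd33, Cd22 and Siglece were in microglia in both libraries, from 65.6% (Siglece, WT) to 96.2% (Siglech, CD169-DTR). In WT, Siglec1 was split between microglia and macrophages, with 48.7% and 42.2% of its UMIs, and most UMIs of Siglecg (58.4%) were in DC. CD169-DTR differed. There, 292 of 426 Siglec1 UMIs were in microglia and 117 in macrophages. Of the 652 Siglecg UMIs of CD169-DTR, 261 were in microglia, 218 in B cells and 139 in DC.

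**Figure D1:**
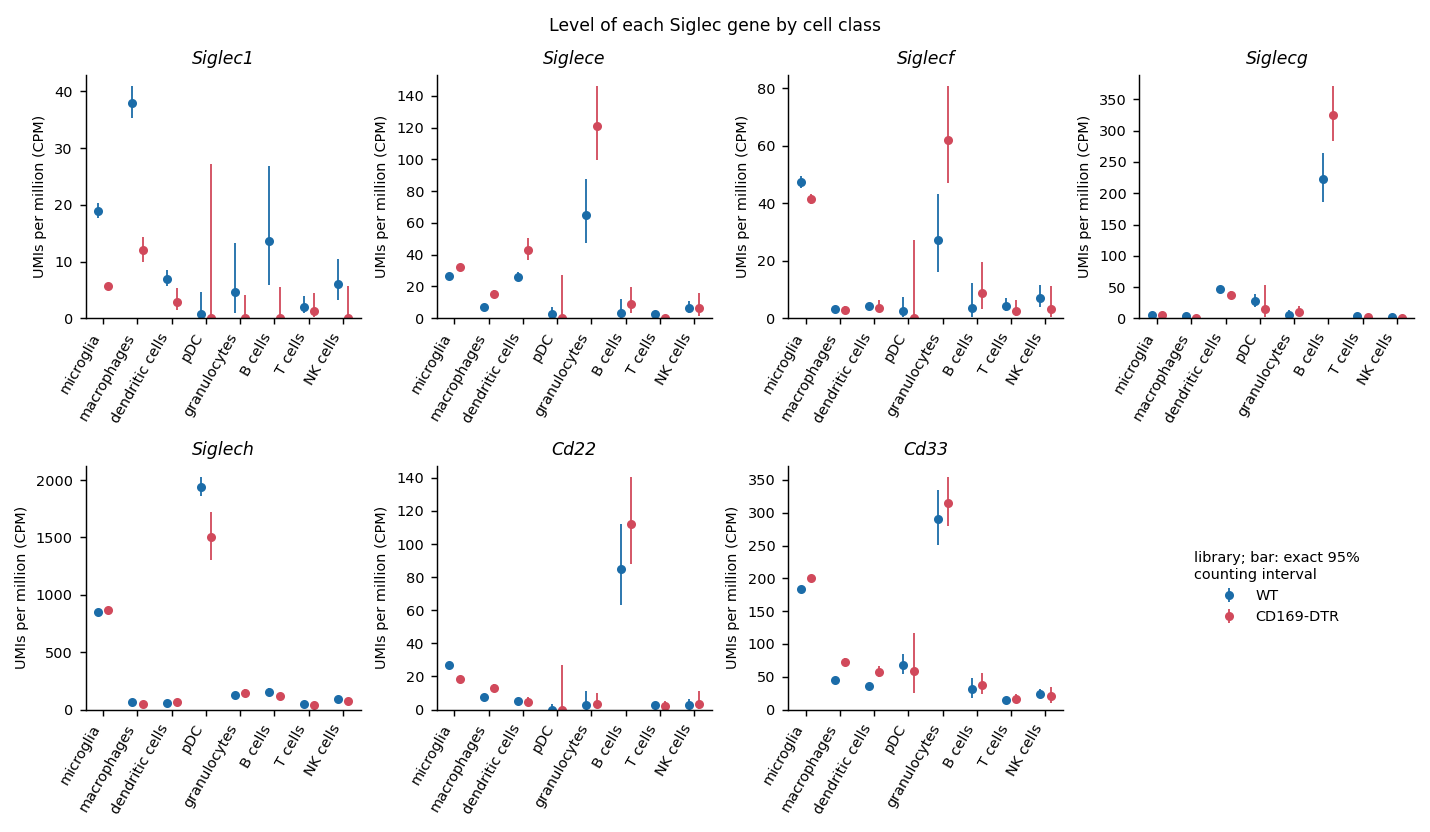
Level of each Siglec gene in 8 immune cell classes (UMIs per 1000000 UMIs of the class, linear axes from 0), as 1 point per library with the exact 95% counting interval, blue for WT and red for CD169-DTR. The level was highest in macrophages for Siglec1, in B cells for Siglecg and Cd22, in pDC for Siglech, and in granulocytes for Siglece and Cd33, while Siglecf was highest in microglia in WT (47.4 CPM) and in granulocytes in CD169-DTR (62.2 CPM).

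Siglec1 was highest in macrophages, at 38.0 CPM (35.3 to 40.9) in WT and 12.02 CPM (9.94 to 14.4) in CD169-DTR. Microglia had 18.9 CPM (17.7 to 20.3) in WT and 5.61 CPM (4.98 to 6.29) in CD169-DTR. In WT, 8.68% (7.53 to 9.94) of thinned macrophages and 3.21% (2.72 to 3.76) of thinned microglia held a Siglec1 UMI, against 0.441% of T cells. Because microglia were more numerous, 622 microglia and 531 macrophages of the WT library held a Siglec1 UMI before thinning. DC had 6.98 CPM in WT and 2.94 in CD169-DTR. WT B cells had 13.6 CPM from 8 UMIs of 2 cells, and no Siglec1 UMI was seen in B cells, NK cells or granulocytes of CD169-DTR, where 3 UMIs would amount to 4.47, 4.66 and 3.33 CPM.

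The Siglec1 level varied between states of microglia, that is, between the 9 clusters of the class, each named here by 2 leading genes. In WT it was lowest in the homeostatic P2ry12 Slc2a5 cluster, at 4.41 CPM (3.01 to 6.22), and highest in the interferon-responding Cxcl13 Ifnb1 cluster, at 46.2 CPM (40.5 to 52.5). In CD169-DTR the same clusters had 0.963 CPM (0.481 to 1.72) and 16.6 CPM (12.9 to 20.99). The Spp1 Cd5l cluster followed with 24.9 CPM in WT, and the proliferating Mki67 Top2a cluster with 22.4 CPM, 2 levels whose intervals overlap. Across the 9 clusters, the level of Siglec1 followed the summed level of 26 interferon-response genes, with Pearson r of 0.91 in WT and 0.84 in CD169-DTR. For the summed monocyte genes r was 0.87 and 0.80 over the same clusters. Among macrophages, the lipid-handling Gpnmb Fabp5 cluster had 51.0 CPM (45.9 to 56.5) and the Clec4e F10 cluster 34.1 CPM (30.6 to 38.0) in WT, while the Ear2 Adgre4 cluster had 4.29 CPM (1.72 to 8.83). In CD169-DTR the order of the first 2 was turned, with 10.7 CPM (8.12 to 14.0) in the Gpnmb Fabp5 cluster and 18.3 CPM (13.9 to 23.5) in the Clec4e F10 cluster. Cells of the Gpnmb Fabp5 cluster differed in depth, with medians of 4744.5 (WT) and 16893 UMIs (CD169-DTR), and the part of this difference in the Siglec1 levels was not tested.

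**Figure D2:**
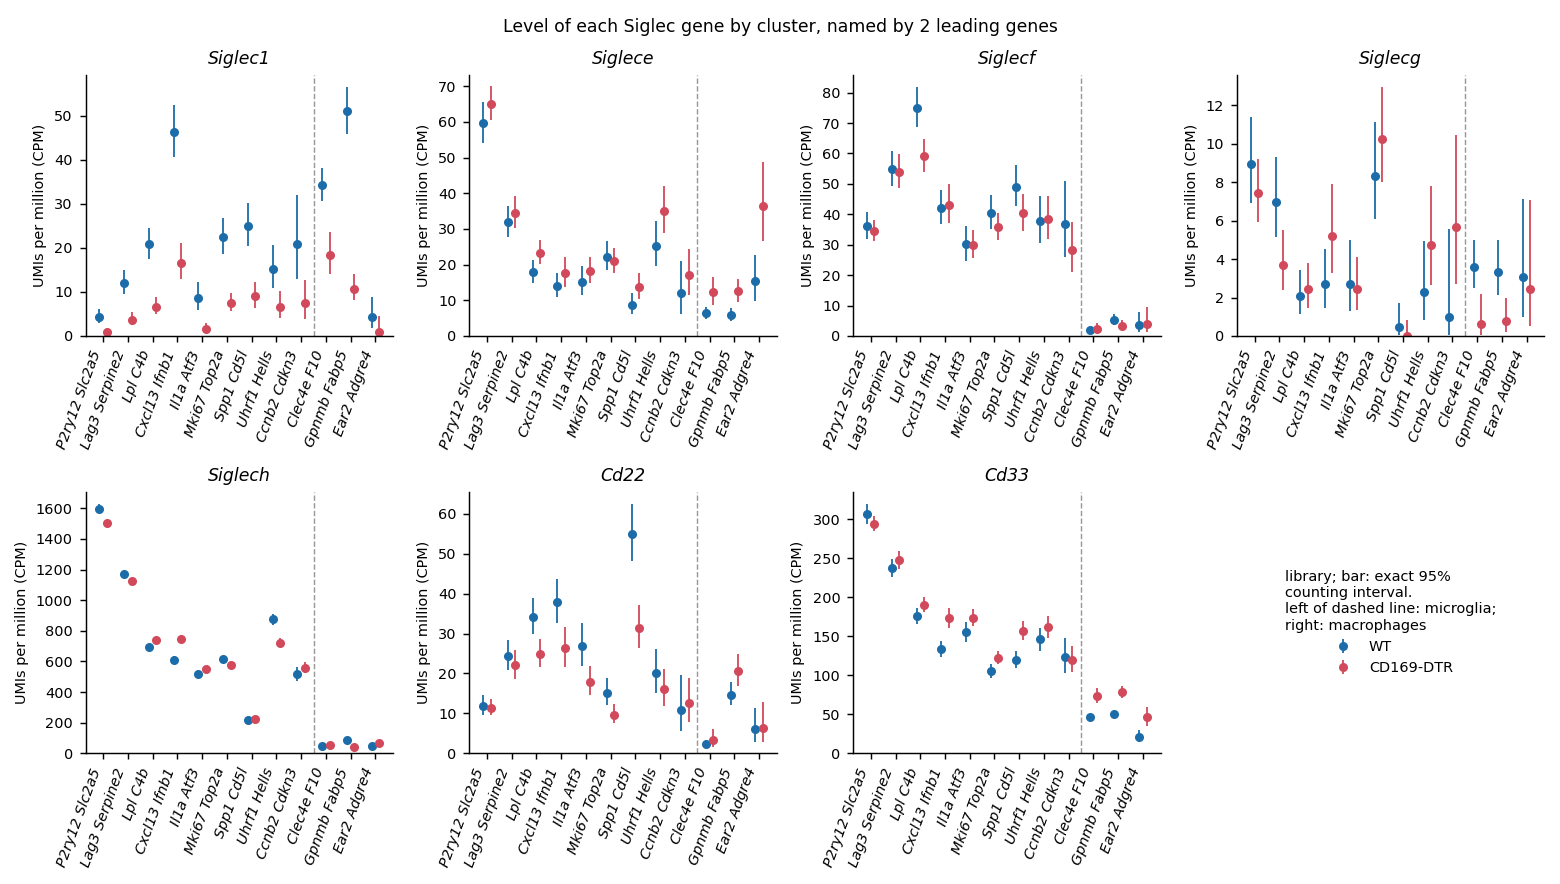
Level of each Siglec gene in the 9 microglial clusters (left of the dashed line) and 3 macrophage clusters (right), in CPM on linear axes, as 1 point per library with the exact 95% counting interval. Siglece, Siglech and Cd33 were highest in the homeostatic P2ry12 Slc2a5 cluster, Siglecf in the Lpl C4b cluster and Cd22 in the Spp1 Cd5l cluster of microglia, and Siglec1 was highest in the Cxcl13 Ifnb1 cluster of microglia and the Gpnmb Fabp5 cluster of WT macrophages.

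WT and CD169-DTR were compared as the log2 ratio of CPM, with an exact conditional interval, over all genes with at least 50 UMIs in a class. Of the 7 members in microglia, 1 lay past 2-fold in the direction of WT, where 0.881% of 12486 genes did, and 0 lay past 2-fold in the direction of CD169-DTR, where 0.617% did. This member was Siglec1, with a log2 ratio of 1.76 (1.56 to 1.95), the 30th highest of all genes tested. In macrophages, 2 members lay past 2-fold toward WT, against 2.7% of 10441 genes, and 1 toward CD169-DTR, against 0.9%. The log2 ratio of Siglec1 in macrophages was 1.66 (1.38 to 1.96), rank 73. Siglec1 was higher in WT in 9 of 9 microglial clusters, by log2 1.19 to 2.47, with every interval above 0, and in 3 of 3 macrophage clusters, by 0.90 to 2.41, with the interval above 0 in 2. In DC the log2 ratio of Siglec1 was 1.25 (0.34 to 2.30) from 98 and 11 UMIs, the 1 of 7 members past 2-fold there, where 2.62% of genes were past 2-fold toward WT and 1.82% toward CD169-DTR. The median over all genes was -0.04 in microglia, -0.05 in macrophages and -0.02 in DC.

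**Figure D3:**
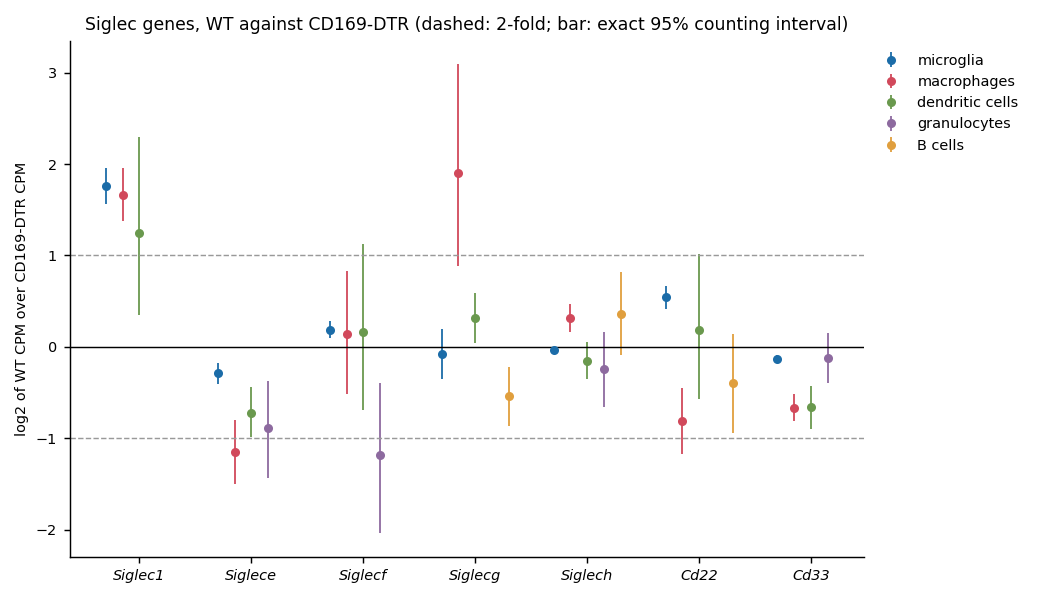
Log2 ratio of WT over CD169-DTR CPM for each Siglec gene in 5 cell classes, for genes with at least 50 UMIs in the class, with exact 95% counting intervals (solid line: equal levels, dashed lines: 2-fold). Siglec1 lies above 2-fold in microglia (1.76), macrophages (1.66) and DC (1.25), whereas Siglece lies below 0 in the 4 classes shown.

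Microglia were next split by a Siglec1 UMI after every cell had been thinned to 4500 UMIs, which left 4100 WT and 4810 CD169-DTR microglia. In WT, 308 microglia held Siglec1, and all 26 interferon-response genes had an interval above 0 in these cells, where 7.97% of all genes did. Their median log2 ratio of cells with over cells without Siglec1 was 0.89, against -0.03 over all genes, and was led by Ifi44, Oas3 and Ifit1. All 14 homeostatic genes had an interval below 0, where 8.06% of all genes did, with a median of -0.50. In CD169-DTR, 106 microglia held Siglec1. Of the interferon-response genes, 21 of 26 had an interval above 0 (6.59% of all genes), with a median of 0.75, though at 2000 UMIs per cell 8 did, and 13 of 14 homeostatic genes an interval below 0 (5.11% of all genes). Of the disease-associated genes, which mark microglia around plaques and dying cells, 10 of 17 were above 0 in WT and 13 of 17 in CD169-DTR. Monocyte genes moved with Siglec1 as well, with 4 of 7 above 0 in WT (median 0.88) and 3 of 5 in CD169-DTR (median 1.04), and the part of monocyte-derived RNA in these microglia was not tested.

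In macrophages, 218 WT cells and 30 CD169-DTR cells held Siglec1 at 4500 UMIs. The MHC class II genes, which present antigen to CD4 T cells, went in opposite directions in the 2 libraries. In WT, 6 of 7 had an interval below 0 in cells with Siglec1 (7.47% of all genes), with a median of -0.34, and in CD169-DTR 5 of 7 had an interval above 0 (4.02% of all genes), with a median of 0.56. The difference between these medians was not tested, and the CD169-DTR value rests on 30 cells.

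Siglece, an inhibitory receptor of myeloid cells, was highest in granulocytes, at 65.3 CPM (47.2 to 87.9) in WT and 121 CPM (99.4 to 146) in CD169-DTR. At 2000 UMIs, 12.8% of WT and 22.2% of CD169-DTR granulocytes held it. Microglia (26.4 and 32.3 CPM) and DC (26.1 and 43.1 CPM) followed, and in WT these 2 classes did not differ beyond their intervals. Among DC, the Cd209a Ifitm1 cluster had 38.3 CPM in WT and 55.3 in CD169-DTR, while the cross-presenting Xcr1 Snx22 cluster had 2.51 and 5.96. Among microglia it ranged from 59.6 CPM (54.1 to 65.5) in the P2ry12 Slc2a5 cluster down to 8.69 CPM (6.12 to 11.98) in the Spp1 Cd5l cluster of WT, and from 65.1 CPM to 13.6 CPM in CD169-DTR. Its level over the 9 clusters followed that of 14 homeostatic genes with r of 0.97 in WT and 0.93 in CD169-DTR. Cell by cell, the 492 WT microglia with Siglece had 14 of 14 homeostatic genes above 0 (9.97% of all genes) and 24 of 26 interferon-response and 15 of 17 disease-associated genes below 0 (7.23% of all genes). The 721 CD169-DTR microglia with Siglece had 14 of 14, 25 of 26 and 15 of 17 in the same directions, where 12.5% of all genes were above 0 and 10.9% below.

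Siglece was lower in WT than in CD169-DTR in every myeloid class with enough UMIs. The log2 ratio was -0.29 (-0.40 to -0.18) in microglia, -1.15 (-1.50 to -0.80) in macrophages, -0.72 (-0.99 to -0.44) in DC and -0.89 (-1.44 to -0.37) in granulocytes. It was below 0 in 3 of 3 macrophage clusters, from -1.25 to -0.94, with every interval below 0. The level behind the macrophage ratio was low in WT, at 6.96 CPM (5.81 to 8.27) against 6.59 CPM (3.60 to 11.1) in NK cells. T cells had less, 2.45 CPM from 10 UMIs in WT and 0 in CD169-DTR. The macrophages of CD169-DTR had 15.4 CPM (13.05 to 18.1). Macrophages of CD169-DTR were also deeper, with a median of 11779.5 UMIs against 7220 in WT, and the part of depth in this ratio was not tested.

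Siglecf, an inhibitory receptor best known from eosinophils and alveolar macrophages, was a gene of microglia here. Microglia held 90.5% of its WT and 94.3% of its CD169-DTR UMIs, at 47.4 CPM (45.3 to 49.5) and 41.6 CPM (39.8 to 43.3). Macrophages had 3.29 and 2.98 CPM, and their shares of cells with Siglecf at 2000 UMIs, 0.275% and 0.558%, were near the 0.441% of WT T cells and are read as background. Its highest microglial level was in the Lpl C4b cluster, with 75.1 CPM (68.7 to 81.9) in WT and 59.1 CPM (53.8 to 64.8) in CD169-DTR, and its lowest in the cytokine-high Il1a Atf3 cluster of WT, with 30.1 CPM, and the dividing Ccnb2 Cdkn3 cluster of CD169-DTR, with 28.4 CPM. In the 654 WT and 742 CD169-DTR microglia with Siglecf, 13 of 17 disease-associated genes had an interval above 0 in each library (3.3% and 3.5% of all genes), led by Spp1, Itgax and Lpl, with medians of 0.23 and 0.17. Others of the list had an interval below 0. These included Gpnmb (-0.94) and Lgals3 (-0.84) in WT, and Gpnmb (-1.35) and Fabp5 (-0.74) in CD169-DTR.

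In granulocytes, Siglecf had 27.3 CPM (16.2 to 43.2) in WT and 62.2 CPM (47.0 to 80.8) in CD169-DTR, from 18 and 56 UMIs, a log2 ratio of -1.19 (-2.04 to -0.40). It was the 1 of 4 members with enough UMIs past 2-fold there, where 3.49% of 3414 genes were past 2-fold toward CD169-DTR and 4.22% toward WT. Eosinophil genes were not seen beside it. Prg2 and Epx, which encode granule proteins of eosinophils, had 0 UMIs in the granulocytes of both libraries, and Ccr3, the eotaxin receptor, had 3 and 5 UMIs, none of them in the 14 WT and 32 CD169-DTR granulocytes with Siglecf. The neutrophil gene S100a8 was detected in 78.6% and 96.9% of the granulocytes with Siglecf, against 91.7% and 97.4% of all granulocytes, and Cxcr2 in 57.1% and 75.0%, against 74.0% and 79.9%. The cells with Siglecf held 402 of 13854 S100a8 UMIs in WT and 2212 of 37814 in CD169-DTR. Retnlg, another neutrophil gene, was detected in 50.0% and 28.1% of them, against 47.9% and 60.3% of all granulocytes. Ly6g, a marker of mature neutrophils with 40 and 155 UMIs in the class, was detected in 7.10% and 14.4% of all granulocytes and had 0 UMIs in the 14 and 32 cells with Siglecf.

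Siglecg, which restrains B cell receptor signaling and binds the sialylated protein CD24, was highest in B cells, with 223 CPM (187 to 265) in WT and 325 CPM (283 to 371) in CD169-DTR. It was held by 40.8% and 49.2% of thinned B cells. DC came next, with 46.2 CPM (42.7 to 49.9) and 37.2 CPM (31.2 to 43.9), and it was found in all 3 DC clusters, in WT from 37.1 CPM (30.7 to 44.4) in the Xcr1 Snx22 cluster to 59.9 CPM (48.6 to 73.1) in the Ccr7 Cacnb3 cluster, and from 23.8 to 43.5 CPM in CD169-DTR. WT pDC had 27.0 CPM (18.5 to 38.1). Microglia had only 4.75 CPM (4.12 to 5.45) in WT and 5.01 CPM (4.42 to 5.66) in CD169-DTR. In WT this was near the 4.41 CPM of T cells, which had 2.50 CPM in CD169-DTR, and the part of background in the microglial level was not tested. Among microglial clusters Siglecg was highest in the P2ry12 Slc2a5 cluster (8.95 and 7.44 CPM) and the Mki67 Top2a cluster (8.32 and 10.3 CPM). The Spp1 Cd5l cluster had 0.47 and 0 CPM. In the 73 WT and 108 CD169-DTR microglia with Siglecg, 6 of 10 cell cycle genes had an interval above 0 in each library (6.28% and 6.78% of all genes), with medians of 0.69 and 0.88. Genes of other cells moved with Siglecg too, since 3 and 4 of 6 MHC class II genes and 3 of 7 and 4 of 6 monocyte genes were above 0, and their part was not tested.

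The log2 ratio of Siglecg between WT and CD169-DTR was -0.54 (-0.87 to -0.22) in B cells, 0.31 (0.05 to 0.59) in DC and -0.08 (-0.35 to 0.19) in microglia. In B cells 0 of 3 members with enough UMIs lay past 2-fold, where 4.89% of 3334 genes were past 2-fold toward WT and 1.92% toward CD169-DTR. In macrophages Siglecg was the second member past 2-fold toward WT, at 1.90 (0.89 to 3.09), from 64 and 9 UMIs. The share of macrophages that held it, 0.826% in WT and 0.558% in CD169-DTR, lay below the 1.10% of WT T cells. In CPM too, macrophages (3.45 and 0.925) lay below T cells (4.41 and 2.50), so both values of this ratio were no higher than the background taken from T cells. NK cells had less, 1.41 CPM from 3 UMIs in WT and 0 in CD169-DTR. Siglecg was higher in WT in 3 of 3 macrophage clusters, with the interval above 0 in 2. The part of background in this ratio was not tested.

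Cd22 also was highest in B cells, with 85.2 CPM (63.2 to 112) in WT and 112 CPM (88.0 to 140) in CD169-DTR and a log2 ratio of -0.39 (-0.94 to 0.14). Microglia nevertheless held 79.3% of its WT and 79.4% of its CD169-DTR UMIs, at 27.0 CPM (25.4 to 28.6) and 18.5 CPM (17.4 to 19.7), and 4.76% and 3.32% of thinned microglia had it against 0% (0 to 0.809) of WT T cells. The microglial level was highest in the Spp1 Cd5l cluster, with 54.97 CPM (48.2 to 62.5) in WT and 31.4 CPM (26.3 to 37.1) in CD169-DTR, and lowest in the dividing Ccnb2 Cdkn3 cluster of WT (10.97 CPM) and the Mki67 Top2a cluster of CD169-DTR (9.69 CPM). Over the 9 clusters it followed 17 disease-associated genes with r of 0.82 and 0.80. In microglia with Cd22, 14 of 17 of these genes had an interval above 0 in WT (406 cells, median 0.55, led by Igf1, Lgals3 and Apoe) and 11 of 17 in CD169-DTR (355 cells, median 0.35, led by Spp1, Fabp5 and Apoe), where 5.03% and 3.88% of all genes did. The same cells had 19 and 16 of 26 interferon-response genes above 0.

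After Siglec1, Cd22 was the member with the largest ratio toward WT in microglia, at log2 0.54 (0.42 to 0.67), rank 330. It was higher in WT in 8 of 9 microglial clusters, with the interval above 0 in 5. Macrophages went the other way, with 7.39 CPM (6.20 to 8.73) in WT and 12.9 CPM (10.8 to 15.4) in CD169-DTR, a log2 ratio of -0.81 (-1.17 to -0.45). Most of the macrophage UMIs came from the Gpnmb Fabp5 cluster, at 14.7 CPM in WT and 20.5 CPM in CD169-DTR, and within the 3 macrophage clusters the log2 ratio was smaller, from -0.57 to -0.08.

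Cd33, whose mouse form differs from human CD33 in its cytoplasmic tail, was highest in granulocytes, with 290 CPM (250 to 334) in WT and 315 CPM (280 to 354) in CD169-DTR. Microglia had 183 CPM (179 to 187) and 201 CPM (197 to 205), and 31.9% and 34.4% of thinned microglia held it. Macrophages (45.6 and 72.4 CPM), DC (36.5 and 57.8 CPM) and WT pDC (67.5 CPM) were lower, and T cells had 14.5 and 15.6 CPM. In the P2ry12 Slc2a5 cluster the level was 307 CPM (294 to 320) in WT and 294 CPM (284 to 304) in CD169-DTR, and it was lowest in dividing microglia, with 105 CPM in the Mki67 Top2a cluster of WT and 120 CPM in the Ccnb2 Cdkn3 cluster of CD169-DTR. In microglia with Cd33, all 14 homeostatic genes had an interval above 0 in both libraries (13.8% and 13.8% of all genes), with medians of 0.31 and 0.26. All 10 cell cycle genes had an interval below 0 in both libraries (11.3% and 11.3% of all genes), with medians of -0.66 and -0.73.

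The log2 ratio of Cd33 was -0.14 (-0.18 to -0.09) in microglia and -0.12 (-0.39 to 0.15) in granulocytes. Larger ratios toward CD169-DTR were seen in macrophages, at -0.67 (-0.81 to -0.52), and in DC, at -0.66 (-0.90 to -0.43). Microglial markers summed to 1444 CPM in WT and 2177 CPM in CD169-DTR DC, and their part in the DC ratios of Cd33 and Siglece was not tested. In macrophages it was below 0 in 3 of 3 clusters, with every interval below 0. Macrophages with a Cd33 UMI held more microglial RNA than those without. Of the 14 homeostatic microglial genes, 14 in WT and 12 in CD169-DTR had an interval above 0 in them (8.7% and 5.03% of all genes), with median log2 ratios of 1.86 and 0.91, and the part of microglial RNA in the macrophage levels of Cd33 was not tested.

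Siglech had its highest level in pDC, where it is a defining receptor, with 1943 CPM (1865 to 2024) in WT and 1504 CPM (1305 to 1725) in CD169-DTR, the latter from 11 cells. The log2 ratio was 0.37 (0.16 to 0.58), and 0 of the 2 members with enough UMIs in pDC lay past 2-fold, where 10.0% of 3674 genes were past 2-fold toward WT and 1.61% toward CD169-DTR. Microglia had 847 CPM (838 to 856) and 865 CPM (857 to 873), and 75.3% and 78.6% of thinned microglia held it. Within microglia the level ranged from 1599 CPM (1570 to 1628) in the P2ry12 Slc2a5 cluster to 219 CPM (205 to 234) in the Spp1 Cd5l cluster of WT, and from 1503 to 225 CPM in CD169-DTR. The log2 ratio between WT and CD169-DTR over all microglia was -0.03 (-0.05 to -0.01), the smallest of the family, and its sign differed among clusters, from -0.29 to 0.28.

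Siglech had 152 (WT) and 118 CPM (CD169-DTR) in B cells, 124 and 148 in granulocytes and 88.1 and 74.6 in NK cells. T cells had 52.0 and 37.4 CPM, and the part of microglial RNA in these levels was not tested. In macrophages Siglech was close to background. It was held by 4.64% (3.79 to 5.61) of thinned WT macrophages and 5.73% (3.78 to 8.28) of WT T cells. In CD169-DTR the shares were 5.86% (4.25 to 7.84) of macrophages and 4.25% (1.96 to 7.91) of T cells. The macrophages that held it at 4500 UMIs (141 and 55) had all 14 homeostatic microglial genes above 0 (18.0% and 9.43% of all genes), with medians of 3.75 and 2.43 on the log2 scale. The macrophage log2 ratio of Siglech, 0.31 (0.16 to 0.47), is thus between values at background, and it turned to -0.64 when the 5% of cells with the highest doublet score in each library were left out.

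Within single microglia at 4500 UMIs, no member was detected in 4.24% (WT) and 2.91% (CD169-DTR), and the mean was 1.90 and 1.92 members per cell. At least 3 members were detected in 23.0% and 22.7%, and the most in a cell was 5. Means were lower in macrophages (0.45 and 0.49), DC (0.57 and 0.77) and T cells (0.17 and 0.11). Granulocytes had 1.11 and 1.42 members per cell, over the 28 and 52 cells deep enough to count, and B cells 1.23 and 1.32. Co-detection was compared with the number of cells that the product of the shares of both genes would give.

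Siglec1 and Siglece were in the same microglial cell less often than the product gives. In WT, 21 microglia held both, where the product of shares gives 37.0, a ratio of 0.57 (0.35 to 0.87), and in CD169-DTR 6 did, where it gives 15.9, a ratio of 0.38 (0.14 to 0.82). Siglece was detected in 6.82% (4.27 to 10.2) of WT microglia with Siglec1 and in 12.4% (11.4 to 13.5) of those without. Taking the product within each cluster and summing moved the ratios to 0.76 (0.47 to 1.17) and 0.57 (0.21 to 1.24), whose intervals hold 1, so within clusters no difference was detectable at this depth. Siglece and Siglecf were both present in 93 WT cells where the product gives 78.5, a ratio of 1.19 (0.96 to 1.45) whose interval holds 1, and in 133 CD169-DTR cells where it gives 111, a ratio of 1.196 (1.001 to 1.42). At 2000 UMIs per cell the CD169-DTR ratio was 0.90 (0.58 to 1.34), so its direction depended on depth. Siglech and Cd33, the 2 most detected members, were both present in 2019 WT and 2612 CD169-DTR microglia, with ratios of 1.03 and 1.02. Pairs with Siglecg rest on few cells, such as 2 WT microglia with Siglecg and Cd22 where 7.23 were given.

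**Figure D4:**
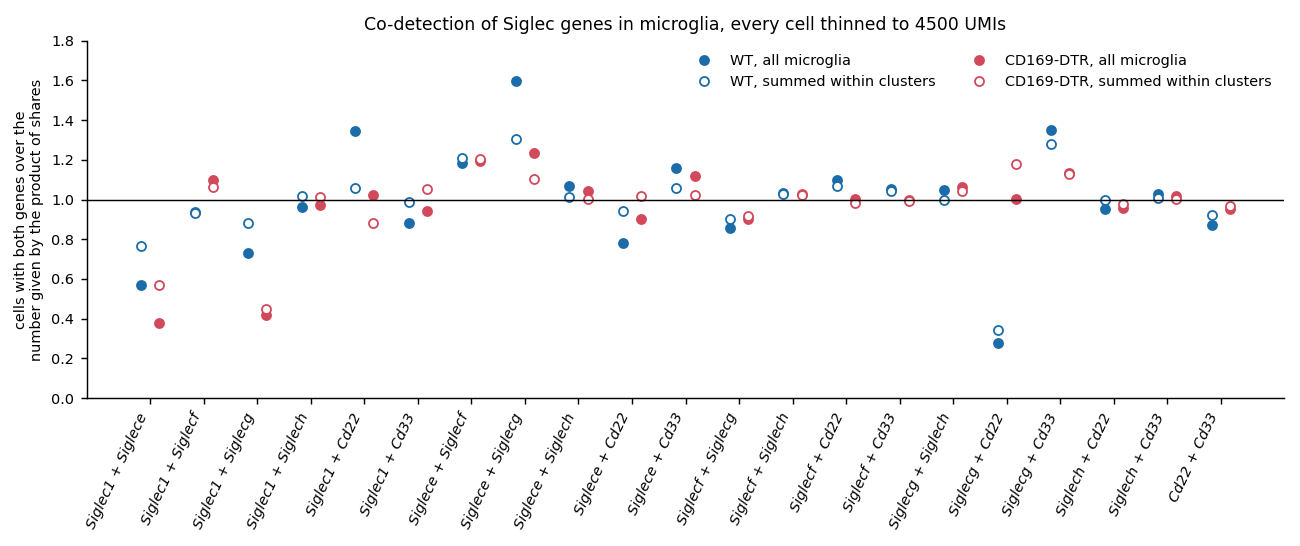
Cells that held both genes of a pair, divided by the number that the product of the shares of each gene gives, for the 21 pairs of Siglec genes in microglia thinned to 4500 UMIs (black line at 1: as many as the product gives). Filled points take the product over all microglia of a library and open points sum it within clusters, and Siglec1 with Siglece lies lowest among pairs without Siglecg, at 0.57 in WT and 0.38 in CD169-DTR.

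The state lists placed the 7 members at different ends of the microglial states. Siglech, Siglece and Cd33 were detected with homeostatic genes, and Cd22 with disease-associated and interferon-response genes. Siglec1 was detected with interferon-response genes, and with monocyte and disease-associated genes as well. Siglecf was detected with disease-associated genes only weakly, and Siglecg, cell by cell, with cell cycle genes. The level of Siglecg over all WT microglia, 4.75 CPM, was near the 4.41 CPM of WT T cells. Over the 9 clusters Siglecg was placed otherwise. Its level had r of 0.75 (WT) and 0.53 (CD169-DTR) with homeostatic genes, and -0.008 and 0.43 with cell cycle genes. The median of the 10 immediate-early and cytokine genes was below 0 for each of the 7 members in WT, from -0.93 (Siglech) to -0.25 (Cd22), although single genes differed, such as Fos with 0.39 (0.22 to 0.56) and Jun with 0.32 (0.21 to 0.42) beside Siglecg. In CD169-DTR the medians lay from -0.93 to 0.10, with Cd22 as the exception above 0.

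**Figure D5:**
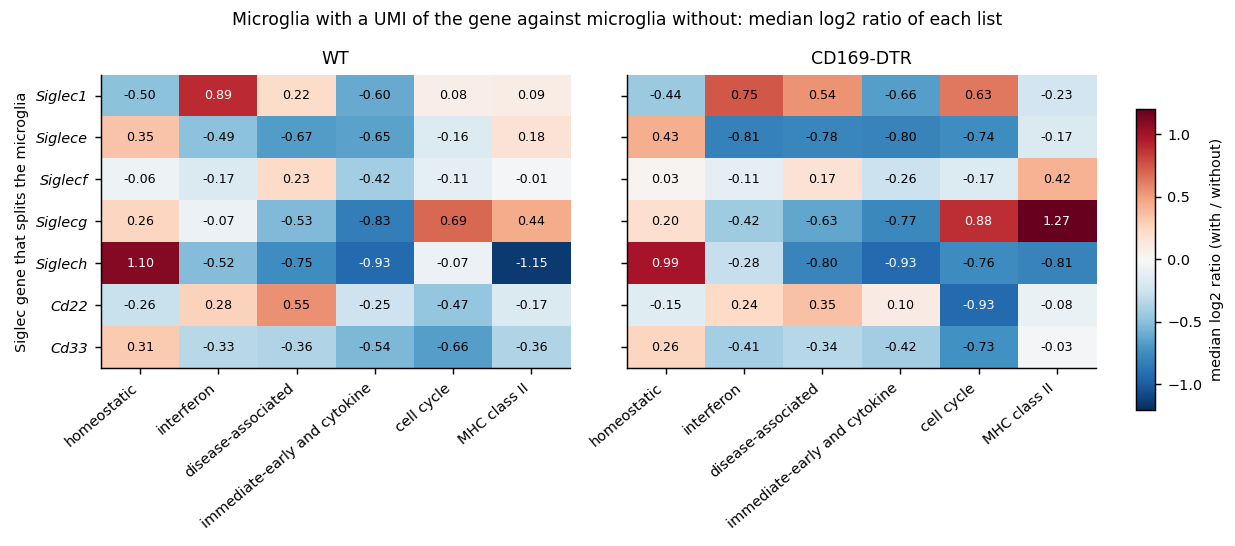
Median log2 ratio of the genes of 6 state lists between microglia with and without a UMI of each Siglec gene, every cell thinned to 4500 UMIs, WT on the left and CD169-DTR on the right (red: higher in cells with the Siglec gene, blue: lower). Interferon-response genes have their highest medians beside Siglec1 (0.89 and 0.75) and homeostatic genes beside Siglech (1.10 and 0.99). Monocyte genes, which also moved with Siglec1, are not shown.

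Genes with the most similar pattern were ranked by Pearson r of log2(CPM + 1) over the 25 clusters of at least 50 cells, among 11074 genes with at least 500 UMIs. The nearest to Siglec1 were Bach2os (0.91) and the monocyte-attracting chemokines Ccl7 (0.88) and Ccl2 (0.84). Siglecf lay nearest to the tetraspanin Cd9 (0.94), Lrrc3 (0.93) and Olfml2b (0.92). Nearest to Cd33 were Sirpa (0.94), an inhibitory receptor that binds CD47, Tgfbr1 (0.93) and Clec5a (0.92), and nearest to Siglech were the inhibitory receptors Lair1 (0.95) and Lag3 (0.94), with Edem2 (0.92). Siglece had Pfkfb4 (0.89), Csf3r (0.88), the receptor of granulocyte colony-stimulating factor, and Gm49368 (0.88) beside it. The nearest genes of the B cell-led members were H2-DMb2 (0.90), Ero1lb (0.80) and Irf4 (0.76) for Siglecg, and Fcrl1 (0.80), Smyd5 (0.78) and Pou2f2 (0.78) for Cd22. These values describe clusters that share libraries and depth, and say nothing of shared control.

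The machinery around the receptors was followed through 41 other genes of sialic acid biology: adaptors and phosphatases, sialic acid synthesis and transport, sialyltransferases, sialidases, sialylated ligands, and the 2 further family members Mag and Siglec15. In microglia 28 of them had at least 50 UMIs, and 0 lay past 2-fold between the libraries, where 0.881% of all genes did toward WT and 0.617% toward CD169-DTR. In macrophages 26 had enough UMIs, and 1 lay past 2-fold, toward WT, a share near the 2.7% of all genes. This was St8sia1, the enzyme that adds a second sialic acid to make the ganglioside GD3, with 13.8 CPM in WT and 3.19 CPM in CD169-DTR and a log2 ratio of 2.11 (1.57 to 2.70), rank 31. Tyrobp, which encodes DAP12, had 3453 and 3193 CPM in microglia (log2 ratio 0.11) and 3037 and 3099 CPM in macrophages (-0.03). Ptpn6, which encodes SHP-1, had 289 and 298 CPM in microglia (-0.04) and 275 and 246 CPM in macrophages (0.16).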

How the data were processed

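The authors deposited raw UMI counts of every barcode, made with Cell Ranger 3.1.0 (file header) on mm10 (submitters' processing notes), without normalization or cell calling. Cells were barcodes from 1000 UMIs up, of which no more than 17% were mitochondrial. The 2 libraries were integrated in Seurat 5.3.0 (R 4.3.3) on 2000 variable features and 50 dimensions, and clustered on 30 dimensions at resolution 1. None of the 7 members was among the features. Clusters took a class name from at least 3 detected markers. Scrublet (scanpy 1.11.5) called 247 WT and 53 CD169-DTR doublets, and none were removed. Free RNA was estimated at 199 (WT) and 128 (CD169-DTR) UMIs per droplet from microglial markers in T and NK cells, its makeup being taken from barcodes holding 10 to 100 UMIs. Sums and intervals were computed in Python 3.11.15 (scipy 1.17.1) and tested on simulated data. The simulated counts held Poisson error alone, as the intervals assume, so they say nothing of the spread between cells or mice.

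UMIs were summed per class and library and scaled to CPM. Groups have 1 library each, so no p-value was computed. Depth sets the precision: 3 UMIs equal 0.0698 CPM in WT microglia and 4.55 CPM in WT granulocytes. Comparisons of cells with and without a gene cover genes with at least 20 UMIs and splits with at least 30 cells on each side, at 4500 UMIs per cell. Of the disease-associated list, 17 genes were used. The members, lists and rules were chosen with earlier results of these data known. The genes named are the 7 members, the 3 most alike in pattern, Tyrobp, Ptpn6 and sialic acid genes past 2-fold, and up to 3 leading genes of a list. The granulocyte and eosinophil markers named beside Siglecf fall outside this rule and were chosen after their values were seen. Alternatives were other cell filters, doublet removal, subtraction of free RNA, another resolution, no integration, other scalings and weights, and other thinning depths. Reference sequences are from RefSeq (GRCm38.p6).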

Additional observations from a re-analysis of the deposited data

How the results depend on the processing

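With 1 library of 3 pooled mice per group, no result could be set against a spread between mice, and low UMI counts limit Siglec1, Siglecg and all values in pDC, B cells and granulocytes. The cell lanes of the 2 libraries also differed, so lane and genotype cannot be told apart. No paired analysis was possible because each group has 1 library and no test was made. The number of members past 2-fold was 1 in microglia and 3 in macrophages under each alternative run. The log2 ratio of Siglec1 in microglia was 1.55 with equal weight per cluster, against 1.76, and lay between 1.55 and 1.804 over 11 alternatives, while in macrophages it lay between 1.58 and 1.91. In DC it lay between 1.08 and 3.62, on 11 CD169-DTR UMIs, and Siglece in macrophages lay between -1.84 and -1.09. Siglech changed sign, to 0.013 with median-ratio size factors and 0.016 with equal weight per cluster in microglia (-0.03 as reported), and to -0.64 without the 5% of cells of highest doublet score and -0.16 with equal weight per cell in macrophages (0.31 as reported). Without those cells 2 ratios whose intervals hold 0 changed sign as well, Siglecf in macrophages (0.14 to -0.11) and Cd33 in granulocytes (-0.12 to 0.055). Shares of cells moved with depth by construction. Siglec1 was detected in 1.67% of WT microglia at 1000 UMIs and 7.51% at 4500, and in 5.03% and 13.5% of WT macrophages. At 2000 UMIs, the co-detection ratio of Siglece and Siglecf in CD169-DTR microglia was 0.90, and 8 interferon-response genes in place of 21 had an interval above 0 in CD169-DTR microglia with Siglec1. At that depth fewer than 30 CD169-DTR macrophages held Siglec1, so no value was computed. None of the 7 members was among the variable features, so keeping them there gives the same clusters. Leaving out the 21 barcodes found in both libraries was added after seeing the data. Of the other values recomputed, 600 moved by less than their counting interval, 98 moved by more, and the cause was not tested.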

Other observations

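Cd33 had 49.4 CPM (44.9 to 54.1) in the Cd209a Ifitm1 cluster of WT, against 10.4 CPM (7.14 to 14.6) in the Xcr1 Snx22 cluster and 14.2 CPM (9.01 to 21.3) in the Ccr7 Cacnb3 cluster. Siglec1 of WT DC lay mostly in the Cd209a Ifitm1 cluster, at 9.74 CPM (7.84 to 11.98) from 90 UMIs.

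In WT DC with Siglec1 at 4500 UMIs (36 cells), the median log2 ratio was 1.36 for homeostatic microglial genes and -0.37 for MHC class II genes, against 0.08 over all genes. In CD169-DTR microglia with Siglecf, 6 of 6 MHC class II genes had an interval above 0, where 3.5% of all genes did, with a median of 0.42. In WT 3 of 6 did, where 3.3% of all genes did, with a median of -0.01, and H2-Eb1 lay below 0, at -0.64 (-0.92 to -0.37), against 0.77 (0.41 to 1.12) in CD169-DTR. The difference between the libraries was not tested.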
